A study of Arabidopsis thaliana with 12 samples.

Results

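The genes described here are the nuclear genes of Arabidopsis that encode subunits of photosystem I, photosystem II and their light-harvesting antennae. They were chosen by symbol, as the rows whose name begins with LHCA, LHCB, PSA or PSB followed by a capital letter or a digit. The rule took 41 of the 23739 genes in the count table. Of these, 39 were photosystem or antenna genes by their RefSeq names, with 4 LHCA, 9 LHCB, 12 PSA and 14 PSB genes. The other 2, PSAT (phosphoserine aminotransferase) and PSAT1 (a phospholipid sterol acyl transferase), matched by letters alone and are given apart. RNA-seq libraries came from whole seedlings that had grown for 10 days in continuous light on medium with sucrose, of the ate1-2 ate2-1 double mutant (a1a2) and the wild-type accession Col-0. The ATE genes encode the arginyl transferases of the Arg/N-degron pathway of protein degradation. Seedlings of each genotype received 1 µM flg22, a peptide of bacterial flagellin that triggers pattern-triggered immunity, or an equal volume of water (mock) for 1 h. This gave 4 groups of 3 biological replicates, each a pool of seedlings: a1a2 with flg22, a1a2 mock, Col-0 with flg22 and Col-0 mock.

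Both photosystems are complexes of the thylakoid membrane in which a chlorophyll-binding core, encoded largely in the chloroplast genome, is joined by nuclear-encoded subunits. The LHCA proteins form the antenna of photosystem I. LHCB2 and LHCB3 contribute to the trimeric antenna of photosystem II, and LHCB4, LHCB5 and LHCB6 are monomeric antenna proteins between the trimers and the core. The transcripts of these genes are among the most abundant in green tissue, and many are known to respond to light, sugar and the state of the chloroplast. Several other antenna genes, such as the LHCB1 genes under their CAB symbols, did not match the rule and appear below in a list of their own.

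Libraries held 20285662 to 22433536 counts. Transcripts of the mutated genes were lower in a1a2 in every library, with ATE1 (AT5G05700) at 2.19 to 4.22 CPM (counts scaled to the normalised library size, per 1e+06) in a1a2 and 20.7 to 28.4 CPM in Col-0, and ATE2 (AT3G11240) at 0.148 to 0.513 CPM in a1a2 and 4.68 to 6.73 CPM in Col-0. The whole-seedling label was checked with markers of green tissue and of roots. The 3 green markers RBCS1A, RCA and CAB1 summed to 25583 to 48967 CPM, the 12 root markers summed to 82.2 to 167 CPM, and none of the root markers was at 0 counts in any library. The factors of the trimmed mean of M-values (TMM) were 0.855 to 0.959 in flg22-treated and 1.053 to 1.157 in mock-treated libraries. Scaling to library size alone therefore shifted the median change over all tested genes, on the log2 scale, to -0.26 in a1a2 and -0.26 in Col-0, against 0.00 and -0.01 with TMM, and changes below are relative to the TMM scale unless stated.

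Levels are given first, as CPM per kb of the longest RefSeq transcript so that genes can be compared. The 39 genes covered a wide range, with 26 above 1000 CPM per kb and a median of 1459. LHCA1 (AT3G54890), a photosystem I antenna protein, had the highest mean over the 12 libraries at 3047 CPM per kb. Next stood PSBR at 2957, a small subunit of photosystem II, PSBO1 at 2673, a subunit of the oxygen-evolving complex, and LHCB3 at 2611. All 4 LHCA genes lay between 1865 and 3047 CPM per kb. The highest PSA gene was PSAL (AT4G12800) at 2314 CPM per kb, whose product sits where photosystem I can bind mobile antenna.

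**Figure D1:**
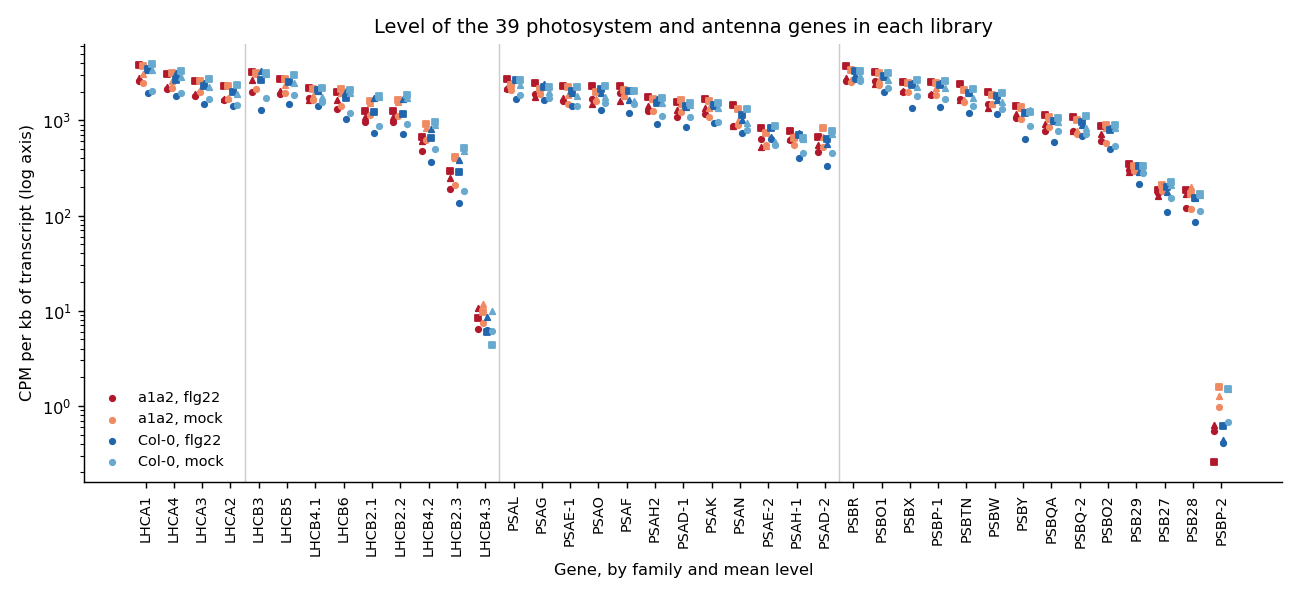
Level of each of the 39 genes in CPM per kb of transcript, on a log axis, with 1 point for each of the 12 libraries, coloured by group and shaped by replicate number. Within each gene but PSBP-2 the flg22 and mock points overlap, while between genes the means run from 0.864 for PSBP-2 to 3047 CPM per kb for LHCA1.

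At the low end stood proteins of assembly and repair and the minor gene copies. PSB29, PSB27 and PSB28, which act in the assembly or repair of photosystem II, averaged 305, 182 and 150 CPM per kb. LHCB4.3 (AT2G40100), a minor copy of the LHCB4 antenna gene, averaged 7.96 CPM per kb, against 1849 for LHCB4.1 and 690 for LHCB4.2. PSBP-2 (AT2G30790), the second copy of the PSBP gene of the oxygen-evolving complex, averaged 0.864 CPM per kb, against 2113 for PSBP-1. No member was at 0 counts in any library, and all 39 passed the filter on low counts and were tested.

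The gene with the highest mean CPM of each family shows how far the libraries of a group spread. PSBO1 (AT5G66570) was at 3868, 4910 and 3671 CPM in a1a2 with flg22, against 3570, 4687 and 4010 CPM in a1a2 mock. In Col-0 it was at 2987, 4386 and 4300 CPM with flg22, against 3284, 4720 and 3969 CPM in mock (replicates 1, 2 and 3 in each case). The groups overlapped, and replicate 1 was lowest in 3 of the 4 groups. LHCA1 was at 3108, 4531 and 3333 CPM in a1a2 with flg22 and 2953, 4450 and 3714 CPM in a1a2 mock, and at 2312, 4157 and 4046 CPM in Col-0 with flg22 and 2465, 4705 and 4101 CPM in Col-0 mock. LHCB3 (AT5G54270), of the trimeric antenna, was at 2439, 3980 and 3310 CPM in a1a2 with flg22 and 2659, 3877 and 3771 CPM in a1a2 mock, and at 1615, 3302 and 4093 CPM in Col-0 with flg22 and 2133, 3949 and 3786 CPM in Col-0 mock. PSAL was at 2322, 2892 and 2350 CPM in a1a2 with flg22 and 2257, 2539 and 2649 CPM in a1a2 mock, and at 1792, 2828 and 2852 CPM in Col-0 with flg22 and 1988, 2873 and 2514 CPM in Col-0 mock. For these genes too, replicate 1 was lowest in every group.

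This pattern held for most members. Replicate 1 held the lowest value of the group for 26 of the 39 genes in a1a2 with flg22, 37 in a1a2 mock, 38 in Col-0 with flg22 and 38 in Col-0 mock. The median member was 1.39-fold, 1.35-fold, 1.64-fold and 1.54-fold higher in replicate 2 than in replicate 1 of these groups. The members also varied more than other genes, with a median coefficient of variation of 19.2%, 16.4%, 26.0% and 22.4% in the 4 groups, against 13.8%, 12.4%, 15.7% and 12.5% over all tested genes. Replicate numbers paired the libraries across groups (all 18 correlations of same-numbered libraries were above 0.1), and a fit with the replicate number as a block is therefore given beside the main one where it changes a call or a count.

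Summed over the 39 genes, the members took 5.01%, 6.42% and 5.39% of the counts in a1a2 with flg22, against 6.17%, 7.82% and 6.85% in a1a2 mock. In Col-0 they took 4.06%, 6.08% and 6.44% with flg22, against 5.60%, 8.08% and 7.25% in mock. The share was lower with flg22 in all 6 same-numbered pairs, and so was the share of each of the 4 families. On the TMM scale this difference was largely gone: the sum was 5.43%, 7.51% and 5.70% of the library size in a1a2 with flg22 and 5.46%, 7.39% and 6.48% in a1a2 mock, and 4.24%, 6.75% and 7.0% in Col-0 with flg22 and 4.84%, 7.67% and 6.62% in Col-0 mock, lower with flg22 in 4 of 6 pairs. In bulk RNA, fewer cells of a type and less RNA per cell cannot be told apart. Without any 1 library of the genotype, the log2 ratio of the mean shares of counts stayed between -0.42 and -0.22 in a1a2 and between -0.47 and -0.16 in Col-0. With all libraries it was -0.31 in a1a2 and -0.34 in Col-0, where it was nearest to 0 without flg22 replicate 1 (-0.16) and without mock replicate 2 (-0.22).

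**Figure D2:**
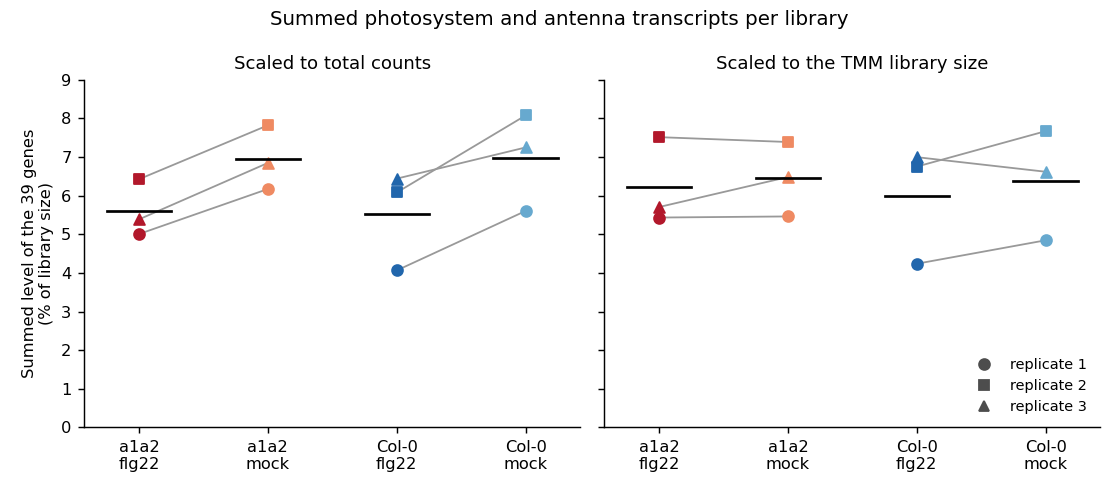
Summed level of the 39 genes per library as a percentage of total counts (left panel) and of the TMM library size (right panel), with grey lines joining same-numbered libraries and black bars at the group means. On total counts every line lies lower at flg22 than at mock, whereas on the TMM scale 4 of the 6 do.

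To determine whether flg22 changed single photosystem or antenna genes, treated seedlings were compared with mock-treated ones in each genotype. A differentially expressed gene (DEG) had an adj. P-value below 0.05 and a change of more than 1.5-fold. In a1a2, 1 of the 39 members was a DEG, while 21.2% of all tested genes were. In Col-0, 1 of 39 was a DEG, while 21.0% of all tested genes were. In both genotypes this was PSBP-2, which fell. The members' share of DEGs thus lay far below that of the transcriptome, in which 7.29% of the genes in a1a2 and 7.06% in Col-0 were downregulated and 13.9% in each were upregulated. With the replicate block, PSBP-2 was still the 1 member called in each genotype, while 24.8% of all tested genes in a1a2 and 24.6% in Col-0 were.

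PSBP-2 was at 0.554, 0.261 and 0.641 CPM in a1a2 with flg22, against 0.987, 1.58 and 1.27 CPM in a1a2 mock. In Col-0 it was at 0.411, 0.619 and 0.437 CPM with flg22, against 0.687, 1.5 and 1.53 CPM in mock. The groups did not overlap in either genotype. No other member separated the treatments in either genotype, while 41.9% of all tested genes did in a1a2 and 39.4% in Col-0. The log2 fold change of PSBP-2 was -1.38 ± 0.40 (SE) in a1a2 (adj. P-value 0.0245, edgeR) and -1.33 ± 0.40 in Col-0 (adj. P-value 0.0286). These values rest on 5 to 13 counts per library with flg22 and 17 to 36 in mock. Leaving out 1 library ended the call in 3 of 12 cases in a1a2 and in 4 of 12 in Col-0. All of these cases were among the 6 libraries of the comparison, and leaving out a library of the other genotype never ended the call. In a1a2 the adj. P-value was 0.0914 without flg22 replicate 2, 0.0864 without mock replicate 2 and 0.0561 without mock replicate 3. In Col-0 it was 0.0858 without flg22 replicate 1, 0.073 without flg22 replicate 3, 0.0966 without mock replicate 2 and 0.0898 without mock replicate 3. An antisense neighbour, AT2G30780, overlaps the gene and held 211 to 321 counts per library. Its log2 fold change was -0.09 in a1a2 and 0.14 in Col-0, and whether reads were counted by strand is not given in the sources used here. The same limit holds for the 15 of 39 members that overlap an antisense gene.

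**Figure D3:**
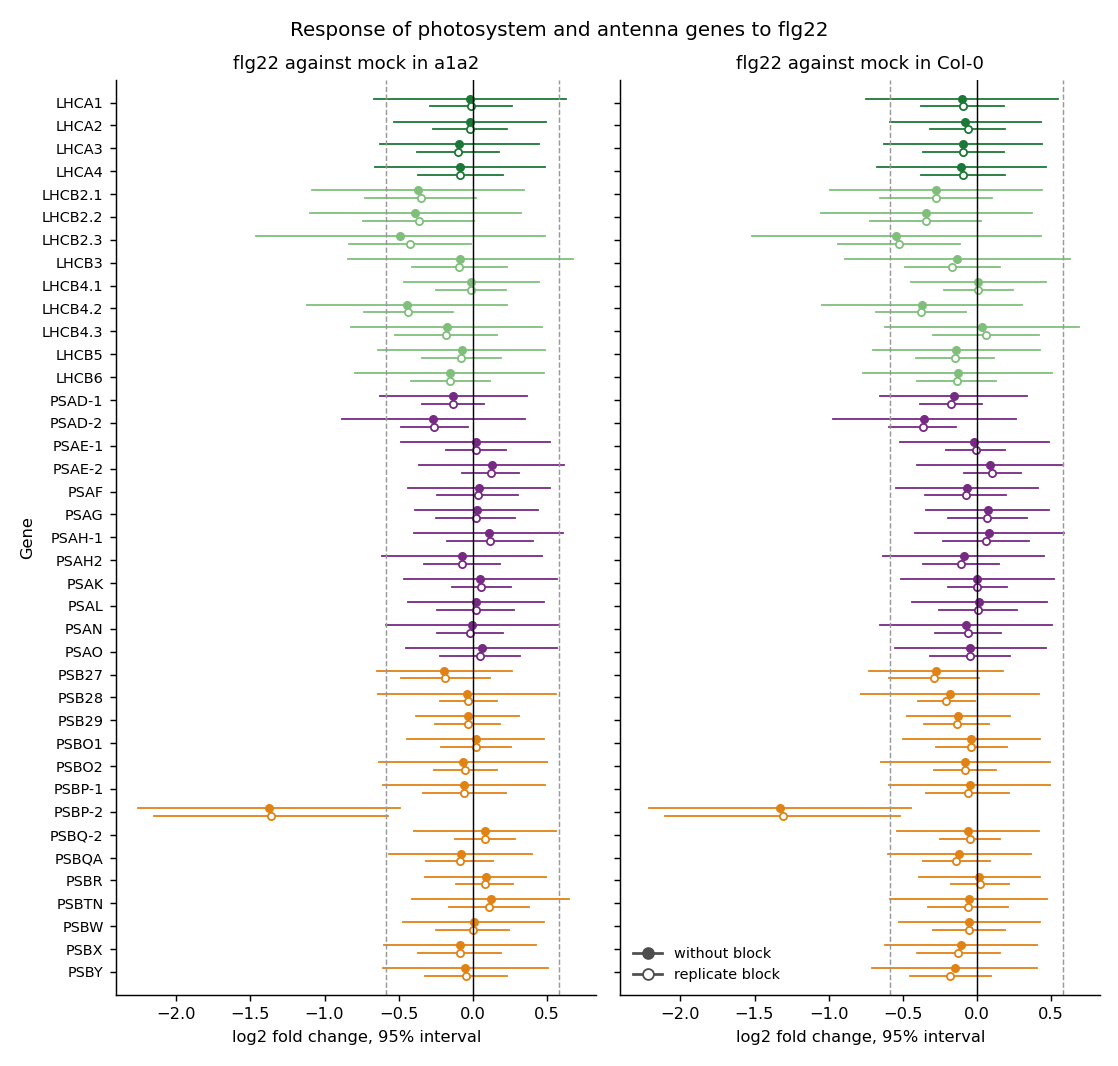
Log2 fold change of flg22 against mock for each of the 39 genes in a1a2 (left) and Col-0 (right), with 95% intervals, from the fit without a block (filled) and with the replicate number as a block (open). Dashed lines mark 1.5-fold, and colours mark the families LHCA, LHCB, PSA and PSB from top to bottom. PSBP-2 stands alone at -1.38 and -1.33, and the other genes lie between -0.54 and 0.13.

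The other 38 genes lay between -0.49 and 0.13 in a1a2 and between -0.54 and 0.09 in Col-0 on the log2 scale. None of them was changed at an unadjusted p below 0.05 in the fit without the block, while 37.3% of all tested genes were in a1a2 and 37.6% in Col-0. With the block, 4 of the 39 members in a1a2 and 5 in Col-0 passed this p, against 46.9% and 48.1% of all tested genes. The median of all 39 was -0.05 in a1a2 and -0.09 in Col-0, against 0.00 and -0.01 over all tested genes. In a1a2 it was above 0 without flg22 replicate 1 (0.002) and without mock replicate 2 (0.046), and in Col-0 without flg22 replicate 1 (0.060) and without mock replicate 2 (0.065). The 95% intervals excluded a change of 1.5-fold in either direction for 15 genes in a1a2 and 14 in Col-0. With the replicate block, this held for 34 and 32 of the 39. Scaled to library size alone, all 39 changes were negative in both genotypes, with medians of -0.30 in a1a2 and -0.33 in Col-0, beside -0.26 and -0.26 for all genes. Of all tested genes, 71.7% in a1a2 and 71.9% in Col-0 were negative on this scale.

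The lowest values after PSBP-2 were those of LHCB2.3 in both genotypes. The LHCB family had a median log2 fold change of -0.17 in a1a2 and -0.14 in Col-0, with all 9 and 7 of 9 genes below 0. The 7 genes under other symbols, among them the 5 LHCB1 genes of the same antenna, lay between -0.18 and 0.05 in a1a2 and between -0.12 and 0.02 in Col-0. The LHCA family of photosystem I had medians of -0.05 and -0.10, and the PSA family medians of 0.03 and -0.03. The PSB genes had medians of -0.04 in a1a2 and -0.09 in Col-0. Across the 6 same-numbered pairs of both genotypes, 8 of the 39 genes were lower with flg22 in every pair, against 24.4% of all tested genes, and 0 were higher in every pair, against 25.5%. The 8 were LHCB2.1, LHCB2.2, LHCB2.3, LHCB4.2, PSAD-1, PSAD-2, PSB27 and PSBP-2.

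LHCB4.2 (AT3G08940), which encodes a monomeric antenna protein, was at 612, 847 and 771 CPM in a1a2 with flg22, against 798, 1161 and 1070 CPM in a1a2 mock. In Col-0 it was at 466, 833 and 1040 CPM with flg22, against 642, 1226 and 1147 CPM in mock. The groups overlapped, but each treated library lay below the mock library of its number. Its log2 fold change was -0.44 ± 0.31 in a1a2 (adj. P-value 0.341) and -0.37 ± 0.31 in Col-0 (adj. P-value 0.437). With the replicate block the changes were -0.43 ± 0.14 (adj. P-value 0.0250) and -0.38 ± 0.14 (adj. P-value 0.0466), under the 1.5-fold threshold in both genotypes. The overlapping antisense gene AT3G08943 held 817 to 1838 counts per library, with log2 fold changes of -0.27 in a1a2 (adj. P-value 0.237) and -0.24 in Col-0 (adj. P-value 0.290), and its part in the result was not tested.

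Under this block, at an adj. P-value below 0.05 and any fold, 2 members passed in a1a2 (39.9% of all tested genes) and 4 in Col-0 (40.5%), against 1 each without the block (27.7% and 28.1%). All of them were lower with flg22. Those in a1a2 were PSBP-2 and LHCB4.2, and those in Col-0 were PSBP-2, LHCB4.2, LHCB2.3 and PSAD-2. With DESeq2 and the block, these 4 genes passed in both genotypes, beside 31.5% of all genes in a1a2 and 32.5% in Col-0. LHCB2.3 (AT3G27690), a gene of the trimeric antenna, was at 276, 433 and 362 CPM in a1a2 with flg22 and 308, 606 and 588 CPM in a1a2 mock, and at 198, 417 and 560 CPM in Col-0 with flg22 and 263, 759 and 690 CPM in Col-0 mock. Its change with the block was -0.42 ± 0.19 in a1a2 (adj. P-value 0.0976) and -0.52 ± 0.19 in Col-0 (adj. P-value 0.0435). PSAD-2 (AT1G03130), 1 of the 2 gene copies of the stromal photosystem I subunit that binds ferredoxin, was at 441, 645 and 521 CPM in a1a2 with flg22 and 502, 785 and 645 CPM in a1a2 mock, and at 313, 609 and 538 CPM in Col-0 with flg22 and 431, 745 and 689 CPM in Col-0 mock. Its change with the block was -0.26 ± 0.10 in a1a2 (adj. P-value 0.0683) and -0.37 ± 0.10 in Col-0 (adj. P-value 0.0138). LHCB2.3 overlaps the antisense gene AT3G27700 (389 to 601 counts per library), and PSAD-2 overlaps AT1G03140 on the same strand (582 to 802 counts), and neither neighbour was a DEG. The difference between the genotypes was tested by the interaction described below, and neither gene passed it.

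Several subunits are encoded by more than 1 gene, and the ratio of the counts of such copies within a library does not depend on how libraries are scaled. All 12 pairs of members that share a stem were compared after the changes above had been seen, with an exact permutation of the treatment labels within each genotype (400 assignments, two-sided, smallest possible p 0.005) and adjustment over the 12 pairs. LHCB4.2 stood at 25.6%, 27.5% and 34.1% of LHCB4.1 in a1a2 with flg22, against 34.8%, 39.3% and 42.4% in a1a2 mock. In Col-0 it stood at 23.4%, 28.5% and 36.7% with flg22, against 29.7%, 39.7% and 46.9% in mock. The ratio was lower with flg22 in 6 of 6 same-numbered pairs, with a mean log2 difference of -0.41, an exact p of 0.020 and an adjusted p of 0.080. LHCB4.1 (AT5G01530) itself was at 2393, 3083 and 2261 CPM in a1a2 with flg22 and 2297, 2958 and 2522 CPM in a1a2 mock, and at 1996, 2926 and 2835 CPM in Col-0 with flg22 and 2161, 3087 and 2448 CPM in Col-0 mock.

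The ratio of PSAH2 to PSAH-1, copies of a photosystem I subunit at the site where mobile antenna docks, was 107%, 122% and 119% in a1a2 with flg22, against 123%, 138% and 134% in a1a2 mock. In Col-0 it was 122%, 115% and 123% with flg22, against 133%, 142% and 129% in mock. It was lower with flg22 in 6 of 6 pairs, with a mean log2 difference of -0.17, an exact p of 0.005 and an adjusted p of 0.030. The ratio of PSBP-2 to PSBP-1 differed by -1.31 on the log2 scale, with the same exact and adjusted p. These were the 2 of the 12 pairs past an adjusted p of 0.05. With the signs of the 6 same-numbered pairs exchanged instead, the smallest possible exact p is 0.031, and the adjusted p of both was 0.075. After adjustment over the 12 pairs of copies, 1 ratio alone could not pass 0.05 by this exchange, so it cannot decide for a single ratio. Of the other 10, PSAD-2 relative to PSAD-1 was lower in 6 of 6 pairs (mean log2 difference -0.16, exact p 0.040, adjusted p 0.096). PSAE-2 relative to PSAE-1, copies of a stromal photosystem I subunit, was higher with flg22 in 6 of 6 pairs, with a mean log2 difference of 0.11, an exact p of 0.280 and an adjusted p of 0.373. By the exchange of signs, LHCB4.2 to LHCB4.1, PSAD-2 to PSAD-1 and PSAE-2 to PSAE-1 had the same adjusted p of 0.075. Fractional counts, which can arise where reads are divided between genes, were found in 13 of the 39 genes. All 3 LHCB2 copies and both PSAD copies held them, whereas PSAH2 held them in all 12 libraries and PSAH-1 in 0, and PSAE-1 held them in all 12 and PSAE-2 in 0. PSAH2 overlaps an antisense gene, AT1G52240, which held 30 to 82 counts per library. How reads were assigned to genes is not given in the sources used here, so the ratios of these copies may carry errors of read assignment.

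**Figure D4:**
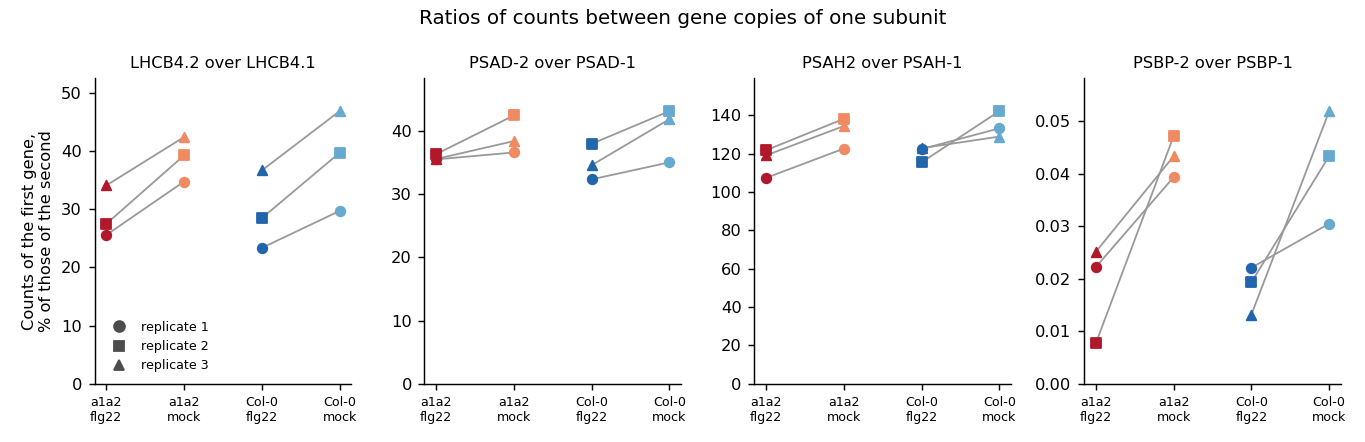
Counts of 1 gene copy as a percentage of those of another copy of the same subunit, for 4 pairs, with a point per library (shaped by replicate number) and lines joining same-numbered libraries. The 4 pairs were picked because their ratio was lower with flg22 in all 6 same-numbered pairs, so the fall of every line follows from the choice. The ratio of PSAE-2 to PSAE-1, which was higher in all 6, is not shown. In all 4 panels the mock ranges in a1a2 and Col-0 overlap.

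The promoters of LHCB4.2, LHCB4.1, LHCB2.1, LHCB2.2 and LHCB2.3 are shown as examples of antenna gene copies, and that of LHCB4.3 is not shown. The 150 bases before the annotated start were read from RefSeq TAIR10.1 for LHCB4.2 (chr3:2717407-2717556, plus strand), LHCB4.1 (chr5:208716-208865, plus strand), LHCB2.1 (chr2:1824481-1824630, minus strand), LHCB2.2 (chr2:1800473-1800622, minus strand) and LHCB2.3 (chr3:10255756-10255905, plus strand). Each is written 5′ to 3′ on the strand of the gene, ending at the base before the start. Capitals mark matches on either strand to the G-box CACGTG, the I-box GATAAG, the letters CCAATC, and the W-box TTGACC or TTGACT.
LHCB4.2: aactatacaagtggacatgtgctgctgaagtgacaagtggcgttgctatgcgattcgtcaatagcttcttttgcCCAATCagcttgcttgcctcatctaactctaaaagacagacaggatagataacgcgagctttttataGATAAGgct
LHCB4.1: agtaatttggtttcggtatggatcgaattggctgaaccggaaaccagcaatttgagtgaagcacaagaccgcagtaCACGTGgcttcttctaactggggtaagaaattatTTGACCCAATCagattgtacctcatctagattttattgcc
LHCB2.1: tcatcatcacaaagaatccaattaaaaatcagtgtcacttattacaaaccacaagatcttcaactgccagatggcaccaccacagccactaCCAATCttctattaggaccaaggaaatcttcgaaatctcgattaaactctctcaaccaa
LHCB2.2: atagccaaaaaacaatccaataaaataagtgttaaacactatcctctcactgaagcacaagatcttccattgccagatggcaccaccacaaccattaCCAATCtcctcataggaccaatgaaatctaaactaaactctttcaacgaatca
LHCB2.3: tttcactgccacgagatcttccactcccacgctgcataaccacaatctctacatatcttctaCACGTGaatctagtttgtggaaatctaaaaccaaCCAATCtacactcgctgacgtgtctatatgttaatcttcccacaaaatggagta
All 5 windows held CCAATC, at 35 to 76 bases before the start. The 5 shown are all the LHCB genes with these letters, so their presence in every window follows from the choice. The window of LHCB4.3, a copy that is not shown, held none of the marked motifs. In LHCB4.1, CCAATC overlapped a W-box match that began 40 bases before the start, and a G-box match began 74 bases before it. LHCB4.2 had neither of these, and its I-box match began 9 bases before the start. LHCB2.3 held a G-box match that LHCB2.1 and LHCB2.2 lacked. Over windows of this length, the G-box letters were found before 11 of the 39 genes (28.2%) and before 5.33% of 20438 tested nuclear genes. The I-box letters were found before 8 (20.5%, against 7.61%), CCAATC before 9 (23.1%, against 6.94%) and the W-box letters before 5 (12.8%, against 19.8%). CCAATC lay before 3 of 4 LHCA and 5 of 9 LHCB genes, and before 0 of 12 PSA and 1 of 14 PSB genes. These matches describe letters, and whether any of them is a binding site was not tested.

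The genotypes were compared next, to determine whether loss of the ATE genes altered these transcripts. Under flg22, 0 of 39 members differed between a1a2 and Col-0, and 0.137% of all tested genes did. In mock, 0 of 39 differed, and 0.166% of all tested genes did. At an unadjusted p below 0.05, 0 members passed in either treatment with edgeR and 0 with DESeq2. Of all tested genes, 950 passed it under flg22 and 940 in mock with edgeR, and 1013 and 985 with DESeq2. With edgeR and the replicate block, 2 members passed it under flg22 and 1 in mock, against 13.3% and 11.8% of all tested genes. None of these members passed after adjustment, and 0.827% and 0.959% of all tested genes were DEGs in that fit. No member separated the genotypes without overlap, while 8.0% of all tested genes did under flg22 and 9.78% in mock. The members' median log2 fold change was 0.06 under flg22 and 0.02 in mock. Within replicate numbers the direction varied: under flg22 the median member was higher in a1a2 by 0.37 in replicate 1 and by 0.15 in replicate 2, and was at -0.27 in replicate 3. Leaving out 1 library moved the median between -0.11 and 0.18 under flg22, and between -0.13 and 0.17 in mock, so no direction was stable.

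Among the 39, the smallest p-values belonged to LHCB4.3 in mock and to PSAF and PSB28 under flg22. LHCB4.3 was at 9.71, 12.7 and 15.6 CPM in a1a2 mock, against 8.09, 5.80 and 13.1 CPM in Col-0 mock, and at 8.52, 11 and 14.1 CPM in a1a2 with flg22, against 8.33, 7.94 and 11.4 CPM in Col-0 with flg22. It was higher in a1a2 in each same-numbered pair of both treatments, as was PSB28, but the groups overlapped. These were 2 of the 39 members, while 6.58% of all tested genes were higher in all 6 pairs. No member was lower in all 6, against 8.30% of all tested genes. The log2 fold change of LHCB4.3 in mock was 0.49 ± 0.29 (adj. P-value 1.00), and 0.52 ± 0.16 with the block (adj. P-value 0.186). PSAF (AT1G31330), the photosystem I subunit that docks plastocyanin, was at 2330, 2772 and 1908 CPM in a1a2 with flg22, against 1449, 2472 and 1974 CPM in Col-0 with flg22, a log2 fold change of 0.25 ± 0.22 (adj. P-value 0.997). PSB28 (AT4G28660), of photosystem II assembly, was at 113, 175 and 160 CPM in a1a2 with flg22, against 80.2, 144 and 143 CPM in Col-0 with flg22. Its change of 0.29 ± 0.27 did not pass (adj. P-value 0.997), nor did it with the block (0.31 ± 0.09, adj. P-value 0.153).

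The flg22 response itself did not differ detectably between the genotypes. In the interaction test, 0 of 39 members and 0.00% of all tested genes passed, and 0 members had an unadjusted p below 0.05 with edgeR or with DESeq2. Of all tested genes, 188 had an unadjusted p below 0.05 with edgeR, and after adjustment DESeq2 called 0 genes, or 4 with the replicate block, none of them a member. The member with the smallest p was PSBTN (AT3G21055), a small lumenal subunit of photosystem II. It was at 1260, 1823 and 1235 CPM in a1a2 with flg22 and 1184, 1560 and 1221 CPM in a1a2 mock, and at 893, 1478 and 1453 CPM in Col-0 with flg22 and 1070, 1613 and 1286 CPM in Col-0 mock. The difference of its responses, a1a2 minus Col-0, was 0.18 on the log2 scale with a 95% interval of -0.57 to 0.93. For LHCB4.3, the next, it was -0.21 with an interval of -1.13 to 0.71. With the replicate block, the intervals of 35 of the 39 members excluded a 1.5-fold difference between the responses, against 1 of 39 without it.

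The 2 genes that matched by letters alone were at lower levels. PSAT (AT4G35630), of serine synthesis, was at 60.9, 60.7 and 53.6 CPM in a1a2 with flg22 and 71.8, 67 and 57.2 CPM in a1a2 mock, and at 64.3, 56.0 and 48.5 CPM in Col-0 with flg22 and 82.4, 64.8 and 53.8 CPM in Col-0 mock. Its log2 fold change with flg22 was -0.16 ± 0.16 in a1a2 (adj. P-value 0.518) and -0.25 ± 0.16 in Col-0 (adj. P-value 0.288), and with the block -0.24 ± 0.08 in Col-0 (adj. P-value 0.0358), under 1.5-fold. Its highest values came from replicate 1, where most photosystem genes had their lowest. PSAT1 (AT1G04010) was at 5.64, 4.48 and 6.12 CPM in a1a2 with flg22 and 5.53, 5.56 and 6.17 CPM in a1a2 mock, and at 5.65, 5.52 and 7.04 CPM in Col-0 with flg22 and 6.47, 6.02 and 7.52 CPM in Col-0 mock, and was a DEG in none of the comparisons.

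Other genes of photosynthesis were counted in lists, to place the photosystem genes beside them. Among 7 antenna and photosystem genes under other symbols, 11 genes of the cytochrome b6f complex and electron carriers, 4 of the chloroplast ATP synthase, 17 of the Calvin-Benson cycle and 10 of state transitions and photoprotection, 0 were DEGs with flg22 in either genotype, also with the block. Of all tested genes, 21.2% were DEGs with flg22 in a1a2 and 21.0% in Col-0, or 24.8% and 24.6% with the block. The medians of these lists lay between -0.18 and 0.00 in a1a2 and between -0.13 and -0.04 in Col-0. The treatment was visible in the same libraries, since 9 of 10 early flg22 marker genes rose in each genotype (10 of 10 with the block). No root marker was a DEG with flg22 (0 of 12), with medians of 0.31 in a1a2 and 0.15 in Col-0.

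Of 17 chlorophyll synthesis genes, 1 rose and 2 fell in each genotype. Of all tested genes, 13.9% rose in each genotype, and 7.29% fell in a1a2 and 7.06% in Col-0. A list of this size cannot tell its counts from these shares. HEMA2, a glutamyl-tRNA reductase copy, rose to 333, 308 and 243 CPM in a1a2 with flg22, against 21.7, 19.4 and 18.7 CPM in a1a2 mock, and to 398, 212 and 213 CPM in Col-0 with flg22, against 23.7, 19.3 and 16.6 CPM in Col-0 mock. GUN4, which activates magnesium chelatase, fell, with log2 fold changes of -1.52 in a1a2 and -1.51 in Col-0. CAO (AT1G44446), the enzyme that makes chlorophyll b for the antenna, fell likewise, at -1.31 in a1a2 and -1.25 in Col-0. Of 13 assembly and repair genes, 1 fell, a share near the 7.29% of all tested genes that fell in a1a2 and the 7.06% in Col-0. It was the gene of the chloroplast signal recognition particle protein that delivers LHC proteins to the thylakoid (cpSRP43, AT2G47450), with log2 fold changes of -0.79 in a1a2 and -0.86 in Col-0.

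Of 17 regulators of photosynthesis genes, 0 rose in either genotype, 6 fell in a1a2 and 5 fell in Col-0, while 7.29% and 7.06% of all tested genes fell. With the block, 1 regulator rose and 7 fell in each genotype. Of the 20439 tested genes, 3160 then rose and 1915 fell in a1a2, and 3132 rose and 1894 fell in Col-0. Without the block, the median log2 fold change of the regulators was -0.53 in a1a2 and -0.56 in Col-0, against -0.05 and -0.09 for the photosystem and antenna genes. PIF1, a basic helix-loop-helix factor that represses chlorophyll synthesis genes in the dark, was at 6.30, 7.09 and 7.55 CPM in a1a2 with flg22, against 22.7, 28.6 and 26.9 CPM in a1a2 mock, and at 4.52, 7.27 and 8.75 CPM in Col-0 with flg22, against 23.2, 28.9 and 26.9 CPM in Col-0 mock. The groups did not overlap. PIF3, of the same family, fell with log2 fold changes of -1.24 in a1a2 and -1.01 in Col-0, and the GATA factor GNC, a promoter of greening, with -1.18 and -1.19. GLK2, an activator of antenna and chlorophyll synthesis genes that was singled out after its values were seen, was at 47.9, 47.6 and 42.5 CPM in a1a2 with flg22, against 83.2, 112 and 103 CPM in a1a2 mock, and at 33.7, 64.7 and 60.0 CPM in Col-0 with flg22, against 75.0, 133 and 119 CPM in Col-0 mock. Its log2 fold change was -1.11 ± 0.25 in a1a2 (adj. P-value 0.0063) and -1.05 ± 0.25 in Col-0 (adj. P-value 0.0089). The clock gene TOC1 went the other way and was the 1 gene up with the block. It was at 141, 112 and 57.6 CPM in a1a2 with flg22, against 56.0, 37.0 and 17.0 CPM in a1a2 mock. In Col-0 it was at 157, 128 and 62.7 CPM with flg22, against 77.5, 51.7 and 21.9 CPM in mock. Each treated library lay above the mock library of its number. The list holds repressors as well as activators, and what links its members to the photosystem genes at 1 h was not tested.

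**Figure D5:**
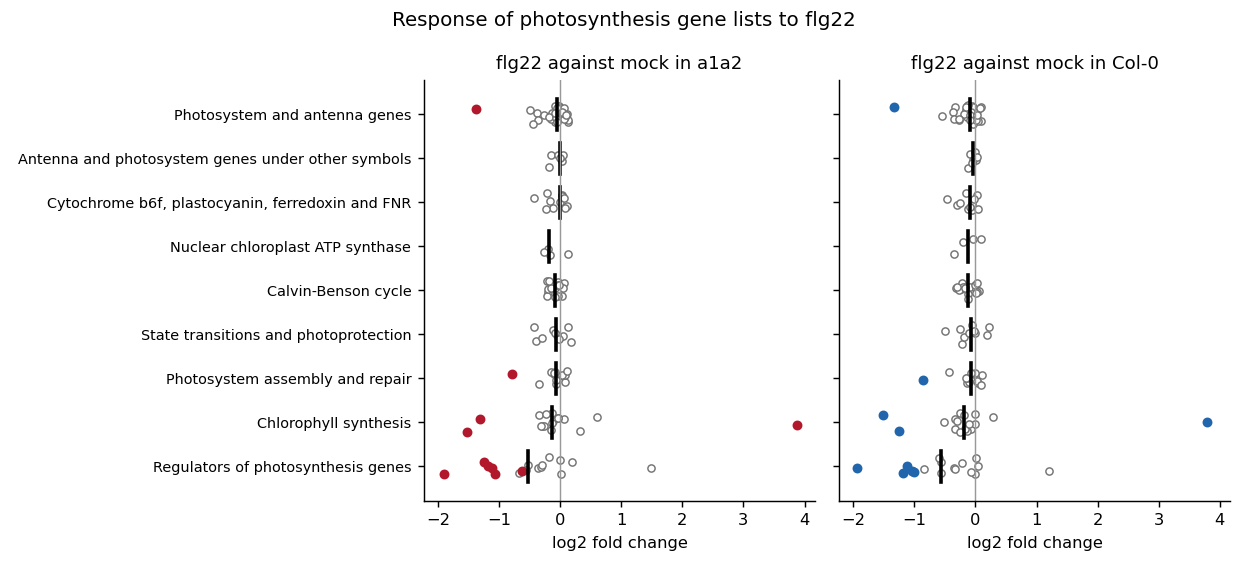
Log2 fold change of flg22 against mock for the genes of each list in a1a2 (left) and Col-0 (right), 1 point per gene, filled for DEGs, with black bars at the list medians. The 39 photosystem and antenna genes lie around medians of -0.05 and -0.09, with PSBP-2 as their only filled point, and the regulators have medians of -0.53 and -0.56.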

How the data were processed

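Poly(A) RNA of 12 libraries was sequenced by the provider as paired-end reads, filtered with SOAPnuke and mapped with HISAT. The submitters' processing notes name the build TAIR10 and DESeq2, and the counting tool, its annotation and its use of strand are not given in the sources used here. The authors deposited an expected count per gene and library, not normalised, with fractional values in 2661 genes. Group averages in the same table were not used.

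Counts were rounded. Genes were matched to RefSeq (TAIR10.1) by Entrez identifier, which also gave transcript lengths and the promoter windows. Low counts were removed with filterByExpr (20439 of 23739 genes kept), and TMM factors, a quasi-likelihood model with 1 mean per group over all 12 libraries and F-tests were computed with edgeR 4.0.16 in R 4.3.3. P-values are two-sided and were adjusted over all tested genes by the Benjamini-Hochberg procedure. A DEG had an adjusted p below 0.05 and more than 1.5-fold change, except in the interaction, which had no fold threshold. The script was tested on simulated data. SE is the fold change divided by the root of F, and 95% intervals come from the t quantile.

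Same-numbered libraries deviated from their group means together, with r of 0.218 to 0.660 in all 18 pairs and at most 0.154 between other numbers. The numbers come from the sample titles, and which step of the experiment they share is not stated.

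Alternatives were RLE factors, library size alone, no filter, the replicate block, DESeq2 1.42.0 with and without it, no fold threshold, the 6 libraries of a comparison, and leaving out each library. Values per sample are given for members called (at most 8 per comparison), the 2 of the 41 genes with the smallest p in each comparison, the gene with the highest mean CPM of each family and genes at or near 0 counts, and for others singled out after their values were seen (LHCB2.3, PSAD-2, LHCB4.1). List genes are named if called, at most 3 per list by size, with GLK2 and TOC1 added after their values were seen. Members and lists were chosen with earlier results of these data known.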

Additional observations from a re-analysis of the deposited data

How the results depend on the processing

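With the 1.5-fold threshold kept, the number of members called was within 1 gene of the main count in every comparison and alternative run. At an adjusted p below 0.05 and any fold, it was 1 in each genotype for flg22, but 3 in Col-0 with library size alone (40.6% of all tested genes passed there). With the replicate block it was 2 in a1a2 (39.9% of all tested genes) and 4 in Col-0 (40.5%). With DESeq2 and the block it was 4 in each (31.5% of all genes in a1a2 and 32.5% in Col-0). With the fold threshold, it fell to 0 in Col-0 with flg22 when only the 6 libraries of that comparison were fitted (PSBP-2 at -1.33, adjusted p 0.0565), and lay between 0 and 1 in each genotype when 1 library at a time was left out. Called members stayed at 0 in the genotype comparisons and the interaction in all alternatives run. The median log2 change of the members moved to -0.33 in Col-0 and -0.30 in a1a2 with library size alone. Leaving out 1 library, it ranged from -0.28 to 0.065 in Col-0, from -0.20 to 0.046 in a1a2, from -0.13 to 0.17 for a1a2 against Col-0 in mock, from -0.11 to 0.18 under flg22 and from -0.14 to 0.19 for the interaction. The log2 ratio of the members' share of counts, flg22 to mock, moved to -0.052 in a1a2 and -0.089 in Col-0 on the TMM library size, and ranged from -0.42 to -0.22 in a1a2 and from -0.47 to -0.16 in Col-0 without 1 library. With the replicate block the members called stayed at 1, 1, 0, 0 and 0 in the 5 comparisons, while the DEGs among all tested genes numbered 5075 against 4326 for flg22 in a1a2, 5026 against 4287 in Col-0, 169 against 28 for genotype under flg22 and 196 against 34 in mock. Without 1 library (an alternative chosen after seeing the data), the PSAH2 to PSAH-1 and PSBP-2 to PSBP-1 ratios kept an unadjusted exact p of at most 0.015 and 0.010, while that of LHCB4.2 to LHCB4.1 passed 0.05 in 5 of 12 cases and that of PSAD-2 to PSAD-1 reached or passed it in 9 of 12. The depth of PSBP-2, 5 to 36 counts per library, limits its precision, and for the other members the spread between replicates does.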
